A study of Mus musculus with 2 samples.

Results

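Mir144 and Mir451a are neighbouring microRNA genes on mouse chromosome 11, known from the precursors of red blood cells. They were taken as the counted genes whose Ensembl identifiers carry these symbols in the GENCODE M21 annotation, which gave 2 genes of the 1973 counted. The study sequenced RNA shorter than 30 nucleotides from livers of healthy B6NCrl mouse embryos at embryonic day 11.5. Its 2 libraries form 1 group, for which the labels name no treatment, and are biological replicates by their labels. Each came from embryos of both sexes that had been pooled, 109 of them for replicate 1, and no number is given for replicate 2. No comparison between conditions exists, so the question is how much of each microRNA this liver held and how alike the pools were.

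Both hairpins are known to lie on 1 primary transcript, which GATA1, the leading transcription factor of red cell formation, switches on. They part ways at the last cutting step. The Mir144 hairpin is cut by Dicer, as most microRNA precursors are, whereas the precursor that Drosha releases from the Mir451a hairpin has a stem too short for Dicer and is cut by the slicer protein AGO2. In mice miR-451a helps erythroblasts mature and protects red cells from oxidative stress, partly by holding down the 14-3-3 protein gene Ywhaz, and in human red cells miR-144 is known to repress the antioxidant regulator NRF2. At this age the fetal liver is becoming the main site of definitive red cell formation, and blood that passes through it carries primitive red cells made in the yolk sac.

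The hairpins are shown first because their predicted shapes differ. Whether shape bears on the counts was not tested. Sequences are those of RefSeq on GRCm38.p6, where both members were found, written 5′ to 3′, and capitals mark the mature microRNAs.
Mir144 hairpin: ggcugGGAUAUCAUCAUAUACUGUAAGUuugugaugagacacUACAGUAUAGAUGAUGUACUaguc
Mir451a hairpin: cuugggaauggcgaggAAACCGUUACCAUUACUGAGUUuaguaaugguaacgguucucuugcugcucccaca
The Mir144 hairpin yields a mature strand from each arm, and the Mir451a hairpin 1 listed strand that reaches into the loop. In the structure of lowest energy predicted for the sequence alone, miR-451a covers positions 17 to 38 of 72, and its last bases are all 4 bases of the terminal loop. The stretch of stem next to that loop has 17 unbroken base pairs. The strands of Mir144, at positions 6 to 28 and 43 to 62 of 66, cover 0 of the 6 bases of the predicted loop.

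**Figure D1:**
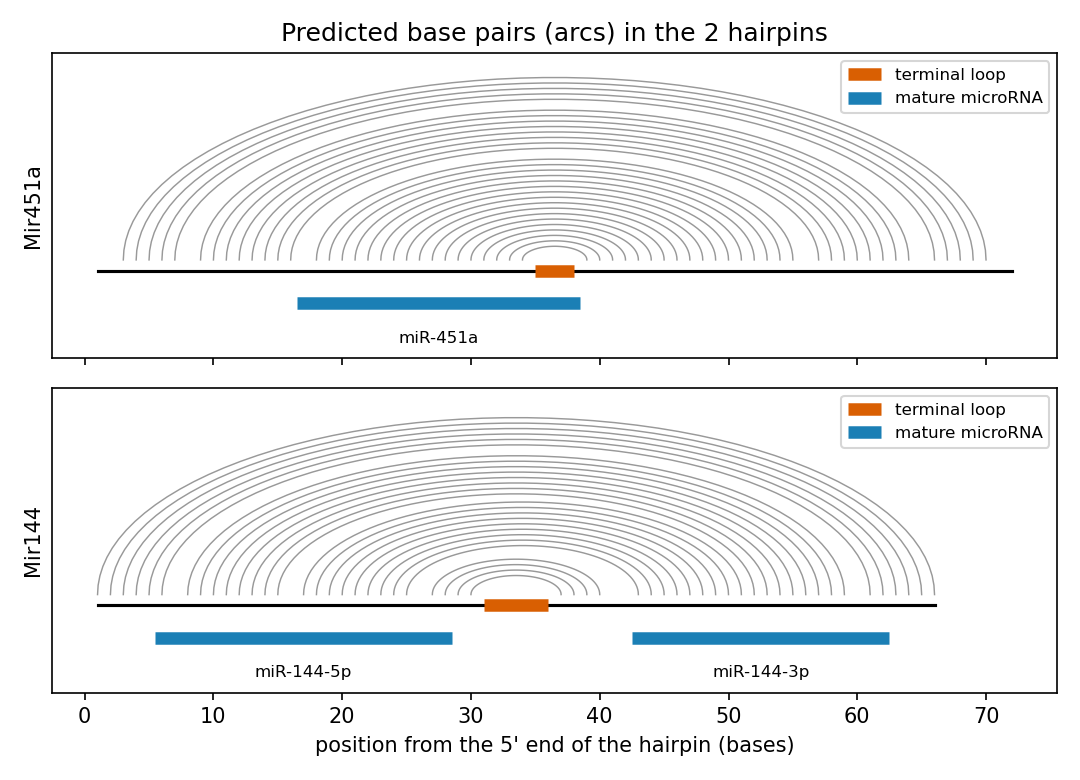
Predicted base pairs in the Mir451a (above) and Mir144 (below) hairpins, by position from the 5′ end in bases. Arcs join paired bases, the orange bar is the terminal loop and blue bars are the mature strands. The blue bar of miR-451a runs through the whole loop, and those of miR-144-5p and miR-144-3p stop short of it on either side.

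In the mature strands, capitals mark the seed, bases 2 to 8, which leads the pairing with target messenger RNAs.
mmu-miR-144-5p: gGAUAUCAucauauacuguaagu
mmu-miR-144-3p: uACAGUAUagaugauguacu
mmu-miR-451a: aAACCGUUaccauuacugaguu
None of these 3 seeds belongs to another of the 1738 mature sequences in the RefSeq table, so the genes share no seed with each other. The deposited counts are per gene, and reads of miR-144-5p and miR-144-3p cannot be told apart in them.

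On assembly mm10 the hairpins lie 99 bases apart on the plus strand. Mir144 (ENSMUSG00000065401.1) spans chr11:78073005-78073070 and Mir451a (ENSMUSG00000070065.1) chr11:78073170-78073241. M21 places no protein-coding gene over them. The nearest genes are Eral1, 134 bases to the right on the minus strand, and Flot2, 12570 bases to the left. Mir451b, annotated on the minus strand at the same bases as Mir451a, was not among the counted genes. Reads on the minus strand of Mir451a numbered 0 in replicate 2 and 1 in replicate 1, at or below the 3 reads that a count of 0 allows, and Mir144 had 0 in both. Neither hairpin shares a run of 20 bases with another counted gene.

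Mir451a was among the more abundant counted microRNA genes of the liver and Mir144 was 10.3 times lower by mean. Levels are counts on the strand of the gene per 1000000 assigned counts (CPM), with no scaling by length. Assigned counts came to 1584499 in replicate 2 and 3344673 in replicate 1. Mir451a stood at 9793 CPM in replicate 2 (95% exact Clopper-Pearson interval 9640 to 9948, 15517 reads) and at 7495 CPM in replicate 1 (7403 to 7588, 25068 reads). Its mean was 8644 ± 1625 CPM (SD, n = 2), rank 32 of all counted genes, with rank 30 in replicate 2 and 36 in replicate 1. Mir144 stood at 1214 CPM in replicate 2 (1160 to 1269, 1923 reads) and at 460 CPM in replicate 1 (437 to 483, 1537 reads). Its mean was 837 ± 533 CPM (SD, n = 2), rank 121, with rank 102 in replicate 2 and 149 in replicate 1. Both genes were thus higher in replicate 2, and the levels of Mir451a lay above those of Mir144 in both libraries without overlap. Intervals cover counting error only, and the sources describe no molecular identifiers. Ranks leave out reads that mapped to several places and genes that were not counted, such as the blood cell microRNA Mir142.

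Together the members took 1.10% of assigned counts in replicate 2 (95% exact interval 1.08 to 1.12) and 0.795% in replicate 1 (0.786 to 0.805), a mean of 0.948 ± 0.216% (SD, n = 2). In whole tissue, more red cell precursors and more microRNA per cell cannot be told apart. Mir122, the leading microRNA of hepatocytes, ranked 4 among all genes in this liver.

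Between the libraries Mir144 moved more than its neighbour. On the scale of edgeR's TMM effective library sizes, the log2 ratio of replicate 2 over replicate 1 was 1.46 for Mir144 and 0.45 for Mir451a, or 2.76-fold and 1.36-fold. A two-sided exact binomial test with Benjamini-Hochberg adjustment over the 454 genes with at least 10 summed counts gave an adjusted p of 7.64e-191 for Mir144 and 6.20e-196 for Mir451a. To be called, a gene had to differ at least 2-fold with an adjusted p under 0.05, which Mir144 met and Mir451a did not. Over all tested genes 7.27% were called, 4.85% higher and 2.42% lower in replicate 2, and 49.1% passed the adjusted p at any size. Of the called genes, 22 were higher and 11 lower in replicate 2, against 19 and 15 when scaled by total assigned counts. The median gene differed 1.34-fold in either direction, close to Mir451a. Over all 454 tested genes Mir144 ranked 29 by size of the log2 ratio and 8 from the highest ratio down. Among the 152 genes whose count averaged 1000 or more, a limit chosen after the values were seen, Mir144 differed most in size. That limit tests nothing. The test knows only counting noise and compares these libraries, not conditions. When a biological coefficient of variation of 0.2 was assumed, edgeR's exact test gave Mir144 an adjusted p of 0.0871 (unadjusted 0.000516) and Mir451a one of 0.777 (unadjusted 0.276), and neither was called.

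**Figure D2:**
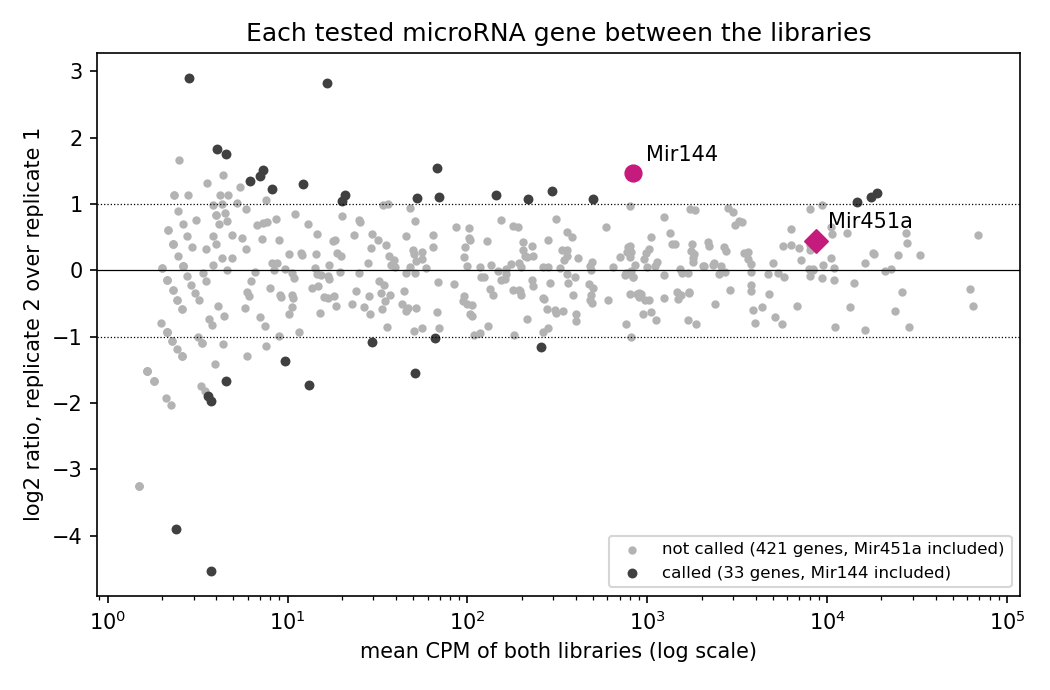
Log2 ratio of replicate 2 over replicate 1 (y axis) by mean CPM (x axis, log scale) for each of 454 tested microRNA genes. Dark points are called genes and dotted lines mark 2-fold. Mir144 at 1.46 stands above the genes of like abundance, and Mir451a at 0.45 lies within the cloud.

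The ratio of the members within a library needs no library size. There were 8.07 reads of Mir451a per read of Mir144 in replicate 2 (95% exact interval 7.70 to 8.47) and 16.3 in replicate 1 (15.5 to 17.2). Per base of hairpin the ratio was 7.40 in replicate 2 and 15.0 in replicate 1. Put as a share, Mir144 supplied 11.03% of the reads of both genes in replicate 2 (10.6 to 11.5) and 5.78% in replicate 1 (5.50 to 6.06). Mir451a led in both libraries, and the exact intervals of its lead, which hold counting error only, did not overlap. Of the neighbouring pairs described below, 69.6% also differed beyond counting error. The log2 ratio averaged 3.52 ± 0.72 (SD, n = 2) and was lower in replicate 2 by 2.02-fold (95% exact conditional interval 1.88 to 2.17), a change of -1.02 on the log2 scale. Reads of different microRNAs were not calibrated to molecules in these files, so the ratio counts reads.

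How far such ratios move was read from all neighbouring pairs, taken as consecutive counted genes on the same strand, at most 1000 bases apart, with at least 10 counts each in both libraries. The 69 pairs drew on 111 genes, so some share a gene. A two-sided Fisher's exact test, adjusted by Benjamini-Hochberg over the pairs, gave Mir451a over Mir144 an adjusted p of 6.68e-86. Of all pairs, 8.7% (6 of 69) were called with a change of at least 2-fold, and 69.6% passed the adjusted p at any size. The median change was 1.41-fold. By size of change the erythroid pair ranked 5 of 69. Set against the other 68 pairs, its change lay 1.59 SDs below their mean, inside their spread. Its ratio itself was not extreme, ranking 27 of 69 by the size of the mean log2 ratio, and the median pair was 7.16-fold apart.

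The 4 pairs that moved further are named with the upstream gene second, as log2 ratios in replicate 2 against replicate 1. Mir192 over Mir194-2, a hepatocyte and gut cluster on chromosome 19, was at 0.94 against -0.62. Mir291b over Mir292, early embryo microRNAs on chromosome 7, was at -1.93 against -3.32. Mir181b-1 over Mir181a-1, known from lymphocytes, was at -5.57 against -4.37. Mir501 over Mir362, in the Clcn5 gene on chromosome X, was at 2.21 against 1.12. Of these 4, all but Mir501 with Mir362 hold a gene that shares 20 bases with another counted gene, whose reads can be lost to the class mapping to several places. Counts were low for Mir291b (32 reads in replicate 2, 52 in replicate 1) and Mir181b-1 (23 and 75). The widest ratios belonged to Mirlet7c-1 over Mir99a, with a mean log2 ratio of -9.32, Mir19b-1 over Mir20a with -8.62 and Mir20a over Mir19a with 7.39, none of them called between the libraries. The first and second of these also hold a gene with such a shared run, so their width is uncertain. The Mir451a to Mir144 ratio was narrower than Mir20a over Mir19a, which holds none.

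**Figure D3:**
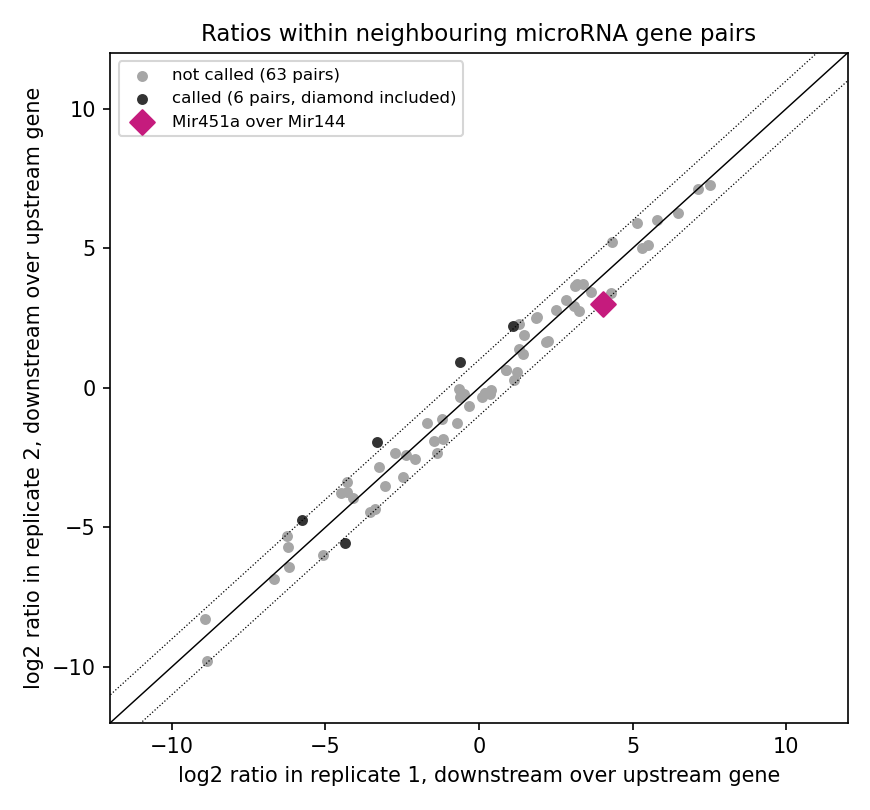
Log2 ratio of the downstream over the upstream gene in replicate 1 (x axis) and replicate 2 (y axis) for 69 neighbouring microRNA gene pairs. The solid line marks equal ratios and dotted lines 2-fold changes. The diamond, Mir451a over Mir144 at 3.01 in replicate 2 and 4.03 in replicate 1, sits just past the lower dotted line.

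The other erythroid microRNA counted, Mir486, was not called between the libraries. It lies in the gene of the red cell protein ankyrin and is abundant in mature red cells. It stood at 343 CPM (replicate 2) and 372 CPM (replicate 1), with a log2 ratio of -0.05 and an adjusted p of 0.596 by the exact binomial test. Mir144 and Mir451a held 97.0% of the counts of the 3 erythroid genes in replicate 2 and 95.5% in replicate 1. Mir144 outnumbered Mir486 3.53 to 1 in replicate 2 and 1.24 to 1 in replicate 1, and Mir451a did so 28.5 to 1 and 20.2 to 1. Among these 3 genes as counted, Mir451a thus led in both pools. At Mir486, 10.1% (replicate 2) and 7.92% (replicate 1) of reads lay on the opposite strand, where M21 has Mir3107. Mir3107 was not counted and lay outside the check for shared runs, so the level of Mir486 can be too low.

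Among microRNAs studied as brakes or helpers of red cell maturation, 11 of 13 listed names were counted and tested, and 1, Mir27a, was called, higher in replicate 2. That is 1 of 11 beside the 7.27% over all genes, and the median log2 ratio of the list was 0.01, as over all genes. Mir27a had 290 CPM (replicate 2) and 143.8 CPM (replicate 1) and shares 20 bases with another counted gene. Its cluster partners did not pass the 2-fold limit: Mir23a had 15150 and 10722 CPM, and Mir24-2 had 230 and 153 CPM, in replicates 2 and 1. Mir23a shares such a run as well, and the check did not cover Mir24-1, a listed gene that was not counted. All 3 genes of the chromosome 8 cluster, Mir27a, Mir23a and Mir24-2, stood higher in replicate 2. So did many other genes, as the median log2 ratio over all tested genes was 0.01.

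The repressors of the stem cell factor receptor gene Kit stood lower in replicate 2. Mir221 had 261 CPM (replicate 2) and 419 CPM (replicate 1), and Mir222 had 169 and 228 CPM. Mir155, which is known to fall as human erythroid cells mature, had 191 CPM (replicate 2) and 366 CPM (replicate 1). Mir150, which represses the progenitor gene Myb, had 28.4 and 41.0 CPM. These 4 genes stood lower in replicate 2 by less than 2-fold and were not called. Mir150 had an adjusted p of 0.120 by the exact binomial test. Mir16-2 was lower as well, with a log2 ratio of -0.41. The median log2 ratio of the whole list was 0.01, so these genes do not stand for the list. Mir15a, which also represses Myb, had 8166 CPM (replicate 2) and 8486 CPM (replicate 1), and the myeloid Mir223 had 5087 and 4934 CPM. Mir16-1 had 3779 and 3705 CPM and Mir16-2 1035 and 1437 CPM. Both Mir16 genes share 20 bases with another counted gene, and reads of such runs may count as mapping to several places, so their levels are uncertain.

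**Figure D4:**
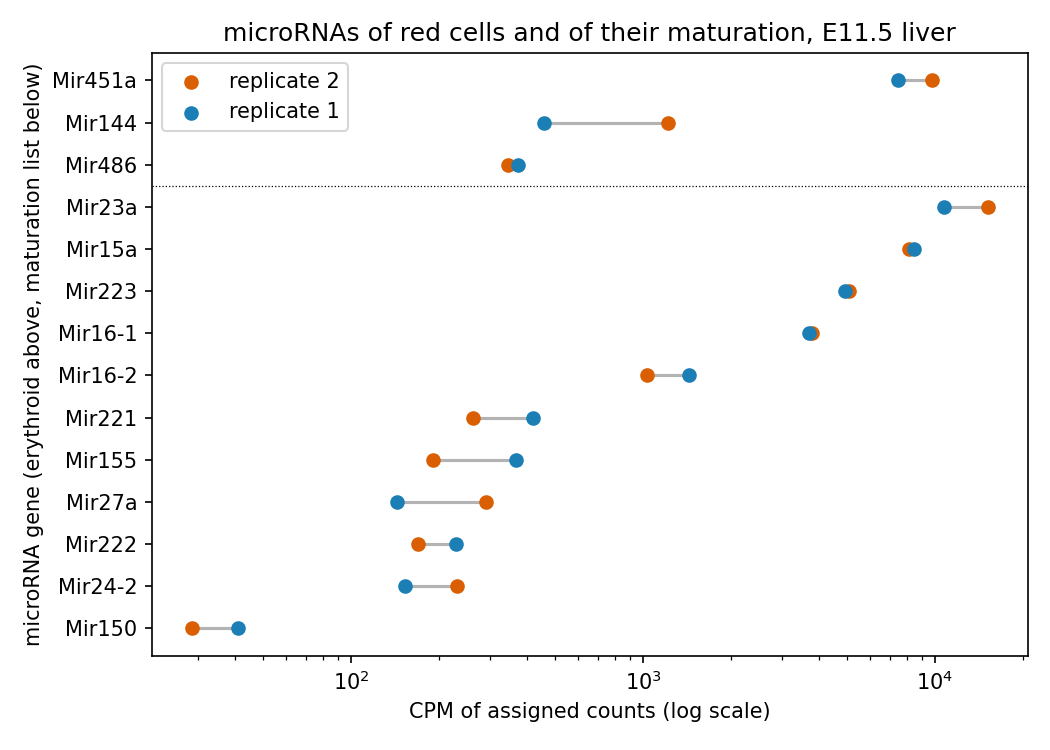
CPM (x axis, log scale) of the erythroid genes above the dotted line and of the listed maturation genes below it, with a point for each library and a grey line joining them. Mir451a lies near 10000 CPM in both libraries, Mir144 shows the widest gap between libraries, and the points of Mir486 nearly touch.

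Markers of other cells in the liver were set beside the members. Mir126a, the endothelial marker counted, had 80051 CPM (replicate 2) and 57443 CPM (replicate 1), and Mir451a kept nearly the same ratio to it, 0.122 and 0.130. Against the hepatocyte gene Mir122 the ratio of Mir451a was 0.284 in replicate 2 and 0.244 in replicate 1, and that of Mir144 was 0.0352 and 0.0150. Against Mir223 the ratio of Mir451a was 1.93 and 1.52, and that of Mir144 was 0.239 and 0.0931. Mir144 was therefore higher in replicate 2 against each of these genes, by 1.90-fold for Mir126a to 2.56-fold for Mir223, while Mir451a moved between 0.938-fold and 1.27-fold. Mir122 and Mir223 are single genes of longer lists, and the ratios depend on the gene chosen. The median log2 ratio of replicate 2 over replicate 1 was -0.52 over 5 tested leukocyte genes, against 0.11 for Mir223. Over the 6 hepatocyte genes it was -0.37, against 0.23 for Mir122. The summed leukocyte list, 6 genes counted, held 0.821% of counts in replicate 2 and 1.05% in replicate 1, and the hepatocyte list, 6 genes, held 3.81% and 3.48%. The leukocyte share leaves out the reads opposite to its gene Mir142b, 62714 in replicate 2 and 140377 in replicate 1, where M21 has the blood cell microRNA Mir142. They came to 35788 and 38247 per 1000000 counts of either strand, several times the whole list. Their part in the members' values was not tested.

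The genes most like each member were found by the Euclidean distance of log2(CPM + 1) over both libraries. Nearest to Mir451a were Mir382 of the imprinted Dlk1-Dio3 region at a distance of 0.16, Mir106b at 0.18, Mir92-1 at 0.31, Mir15a at 0.32 and Mirlet7i at 0.32. Their levels ran from 8141 to 9488 CPM in replicate 2 and from 7143 to 9357 CPM in replicate 1. Mir144 had fewer close matches: Mir27b lay at 0.35, with 1039 CPM (replicate 2) and 556 CPM (replicate 1), followed by Mir181a-1 at 0.78, Mir3071 and Mir29a at 0.79 and Mir203 at 0.84. With 2 libraries the measure says only that levels were alike. By mean, Mir451a stood between Mir379 and Mir15a and Mir144 between Mir669l and Mir200b. These genes were picked as adjacent in rank, so their closeness in level is not a result.

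The seed of miR-144-3p is its own, but bases 2 to 7 are shared. In the RefSeq table only miR-101a-3p has the same bases there, and miR-101b-3p carries the run ACAGUA from base 3. They are shown as seed relatives of miR-144-3p, with seeds in capitals.
mmu-miR-101a-3p: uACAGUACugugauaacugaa
mmu-miR-101b-3p: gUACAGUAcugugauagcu
Mir101b had 4122 CPM (replicate 2) and 2595 CPM (replicate 1), which is 3.40 and 5.65 times the level of Mir144. Mir101a had 104 and 68.8 CPM, or 0.0853 and 0.150 times that of Mir144. Mir144 thus lay between the 2 genes in both libraries. Mir101a and Mir101b each have a run of 20 bases in common with another counted gene, so these levels can be too low. The counts are per gene, not per strand, so they do not compare miR-144-3p with miR-101a-3p or miR-101b-3p.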

How the data were processed

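The authors deposited raw read counts for each microRNA gene in 3 columns (either strand, strand of the gene, opposite strand). Per the file descriptions, the assembly was mm10 and the annotation M4. Trimming, aligner and counter are not given in the sources used here. The 4 summary classes that open each file name no gene and stayed out of library sizes and tests. They hold 71.0% of the reads of replicate 2 and 73.8% of those of replicate 1. The libraries held 5471247 reads (replicate 2) and 12750572 (replicate 1), of which 22.6% and 22.0% mapped to several places. A count of 0 allows 1.89 CPM in replicate 2 and 0.897 CPM in replicate 1.

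Symbols came from GENCODE M21, on the same assembly, by Ensembl identifier (1894 of 1973 matched). CPM was computed here from the counts on the strand of the gene. Ratios have 0.5 added to each count where given as log2. Library sizes were TMM effective sizes (edgeR 4.0.16, R 4.3.3), with DESeq2 1.42.0 size factors as an alternative. The libraries form 1 group, so no quasi-likelihood test between groups was possible, and counting tests (scipy 1.17.1) compare the libraries only. Pools may differ for technical reasons that p-values also pick up. Hairpins were folded with RNAfold (ViennaRNA 2.7.2). The tests were tried on simulated counts that held counting noise only, which does not cover variation between pools. Lists are textbook microRNAs. The named genes are the members, all counted genes of the erythroid and maturation lists, the 5 nearest genes of each member, the 5 pairs with the greatest change and the 3 with the widest ratio; seed relatives and markers were added. The members, lists and tests were chosen with earlier results of these data known.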

Additional observations from a re-analysis of the deposited data

Results flagged for a closer look

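Reads on the opposite strand, a column outside the measurement used, exceeded the 3 reads that a count of 0 allows in both libraries at 3 genes of the lists, and at neither member. At Mir486 they numbered 168, 61 in replicate 2 and 107 in replicate 1, or 10.1% and 7.92% of the reads there, where M21 has Mir3107 on the other strand. At Mir126a they numbered 86, 31 and 55, where M21 has Mir126b. At Mir142b they numbered 203091, 62714 and 140377, where M21 has Mir142, a microRNA of blood cells. None of these partners was among the counted genes.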

How the results depend on the processing

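Scaling (total assigned counts, DESeq2 size factors), the filter on low counts and the strand column left Mir144 called, with a log2 ratio of 1.39 to 1.47, and Mir451a not called, at 0.37 to 0.45. With an assumed coefficient of variation of 0.2, the log2 ratio of Mir144 was still 1.46 but not called, and 1 gene was called in place of 33 (51 at an unadjusted p under 0.05). The change of the pair's ratio, -1.02, was -1.59 in SDs of the other pairs. Called pairs numbered 13 of 101 with gaps of at most 10000 bases, where the pair ranked 13, and 3 of 43 without genes sharing 20 bases, where it ranked 2. With at least 100 counts in each library, 4 of 49 were called and the pair ranked 3. As a share of all reads, the means were 2401 per 1000000 for Mir451a, 236 for Mir144 and 0.264% for both. Leaving out a replicate gives the other library alone: 7495 to 9793 CPM for Mir451a, 460 to 1214 CPM for Mir144, 0.795 to 1.10% for both and 3.01 to 4.03 for the log2 ratio. No paired analysis was possible because the labels give a lone group. Depth does not limit the members, each with over 1000 reads per library.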
